A study of Mus musculus with 18 samples.

Results

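The genes described here encode the synaptic scaffold proteins Cask, Dlg1, Dlg2, Dlg3, Dlg4, Lin7a, Lin7b, Lin7c, Apba1 and Apba2. They were taken by gene symbol, and all 10 were found among the 23038 symbols of the count table and passed the filter on low counts. Their mRNA was measured in the cortex of CD1 mouse embryos at day E18.5, in 4 groups of 3 mice: *Nova2-/-* and wild-type mice 1 to 3, and *Nova1-/-* and wild-type mice 4 to 6. *Nova2* and *Nova1* encode neuronal RNA-binding proteins that control alternative splicing, and both null alleles are constitutive, so every cell of the embryo carries them. In the *Nova2* allele a targeting cassette stands ahead of the start codon in the first coding exon, and transcripts of the locus can still be counted. Splicing was measured in the same cortices and in midbrain and hindbrain of *Nova1-/-* mice and their wild-type controls, as 1 deposited value per event and comparison. This value, *Δ*I, is the inclusion of an exon or splice site in wild-type minus its inclusion in the knockout, on a scale from -1 to 1. A value above 0 therefore means less inclusion in the knockout. No replicate values or read numbers come with *Δ*I, so no error could be given for it.

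The Dlg proteins are membrane-associated guanylate kinases. They line up PDZ, SH3 and guanylate-kinase-like domains and hold glutamate receptors and adhesion proteins at the postsynaptic membrane, with Dlg3 the family member most associated with NMDA receptors at early developmental stages. Cask has the same domain order behind a kinase-like domain and a region that binds Lin7. Together with Lin7 and Apba (Mint) proteins it forms a complex that links neurexins and other surface proteins to vesicles and motors. *Cask* and *Dlg3* are X-linked.

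Splicing events were listed for *Dlg3* and *Cask* and for none of the other 8 genes. Of all genes tested in *Nova2-/-* cortex, 3.22% had an event. The 10 genes were chosen with earlier results of these data known, so this count is a description. All of the exon-level events fall in 2 short stretches of the X chromosome, given here in mm9 coordinates, and the exons are printed because the results turn on which of them was used. In *Dlg3*, on the plus strand, 3 alternative exons lie between an exon of 76 nt (chrX:98002519-98002594) and an exon of 51 nt (chrX:98008065-98008115). They are, in transcript order, an exon of 100 nt (chrX:98003392-98003491), an exon of 46 nt (chrX:98005201-98005246) and an exon of 42 nt (chrX:98006841-98006882). All 3 lie inside the coding sequence of annotated transcripts. In *Cask*, on the minus strand, an exon of 69 nt (chrX:13129499-13129567) precedes an exon of 36 nt (chrX:13128073-13128108), and both are coding. The lines give the exons and, for 3 of them, 100 bases of the neighbouring intron, 5′ to 3′ on the transcript's strand, with every copy of the YCAY motif bound by NOVA proteins (CCAC or CCAT with a first C, and TCAC or TCAT with a first T) in capitals and overlapping copies run together.
Dlg3, 100 bases upstream of the 100-nt exon: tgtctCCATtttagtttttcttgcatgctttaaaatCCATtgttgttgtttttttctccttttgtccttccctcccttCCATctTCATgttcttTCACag
Dlg3, 100-nt exon: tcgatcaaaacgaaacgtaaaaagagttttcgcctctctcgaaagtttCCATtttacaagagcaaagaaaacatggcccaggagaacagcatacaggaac
Dlg3, 46-nt exon: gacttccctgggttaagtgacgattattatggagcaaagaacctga
Dlg3, 42-nt exon: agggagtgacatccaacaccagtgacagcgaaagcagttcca
Dlg3, 100 bases downstream of the 42-nt exon: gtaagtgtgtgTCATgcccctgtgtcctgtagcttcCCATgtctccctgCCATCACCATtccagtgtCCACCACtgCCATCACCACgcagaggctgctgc
Cask, 69-nt exon: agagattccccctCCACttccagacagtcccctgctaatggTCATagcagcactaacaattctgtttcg
Cask, 36-nt exon: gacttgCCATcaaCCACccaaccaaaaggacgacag
Cask, 100 bases downstream of the 36-nt exon: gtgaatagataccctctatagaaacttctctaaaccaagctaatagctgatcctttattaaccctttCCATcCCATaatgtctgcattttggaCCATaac

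The motif was counted on the transcript strand in each exon and in 200 bases on either side, 54 copies in all. The 100-nt exon of *Dlg3* had 10 copies upstream, 1 within it and 2 downstream. The 42-nt exon had the opposite layout, with 1 copy upstream, none within it and 13 downstream. The 46-nt exon between them had 4 copies upstream and 4 downstream. For the cassette exons of the whole table that could be placed on 1 annotated exon (291 exons), the median was 3 copies upstream and 4 downstream, 3.09% had 10 or more upstream and 1.03% had 13 or more downstream. At least 1 copy stood upstream of 95.5% and downstream of 95.9% of these exons. With exon and both sides together, 23.7% of them had at least as many copies as the 100-nt exon and 18.6% as the 42-nt exon. The 2 *Cask* exons each had 2 copies upstream and 2 inside, followed by 5 downstream of the 69-nt exon and 6 downstream of the 36-nt exon. YCAY motifs were part of how the study picked its events, so their presence is a description and not a result.

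**Figure D1:**
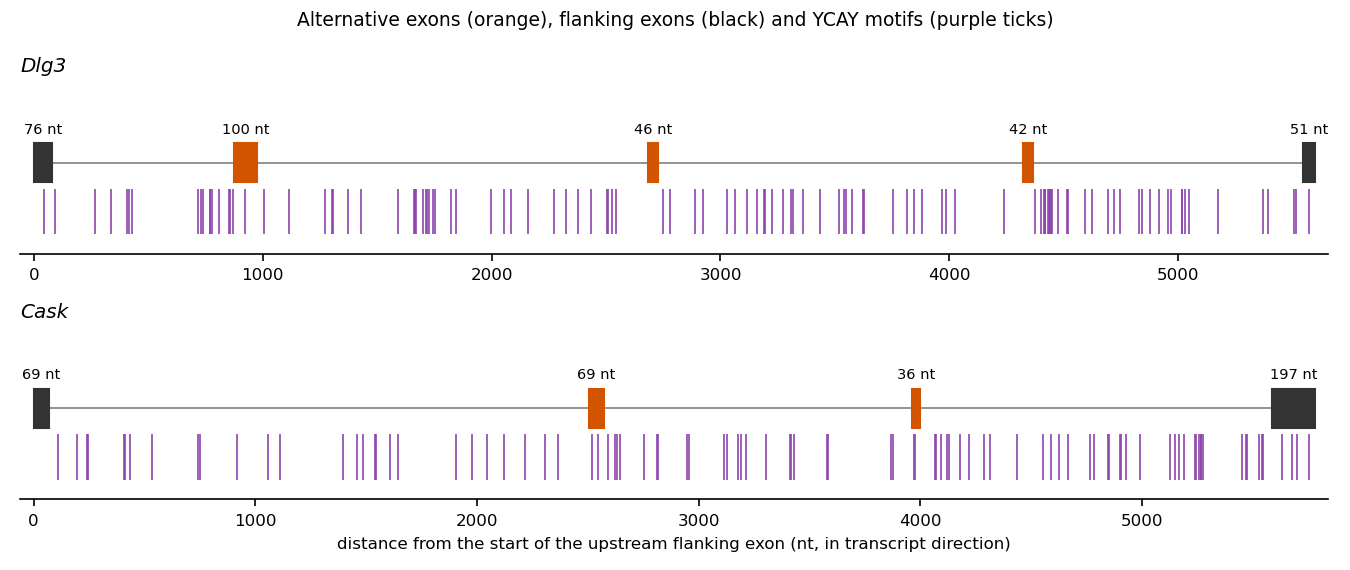
Map of the alternative region of *Dlg3* (top, 5597 nt) and *Cask* (bottom, 5782 nt), with the distance in nt from the start of the upstream flanking exon on the horizontal axis. Orange boxes are alternative exons, black boxes flanking exons and purple ticks the 113 and 95 YCAY motifs. In *Dlg3* ticks stand close together just before the 100-nt exon, just after the 42-nt exon and inside the intron between the 100-nt and 46-nt exons.

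In *Nova2-/-* cortex the 100-nt exon of *Dlg3*, or a longer form of it, was included more and the 46-nt exon less. Of the 9 *Dlg3* events, 5 measure the 100-nt exon or a longer form of it, and their *Δ*I was below 0 in each. Where the 100-nt and the 46-nt exon replaced each other between the flanking exons, *Δ*I was -0.608 in *Nova2-/-* cortex. As a cassette between the 76-nt and the 46-nt exon, the exon taken as the 100-nt form had a *Δ*I of -0.576. Against the 46-nt exon ahead of the 42-nt exon it had -0.55, and against the 42-nt exon it had -0.424. The fifth of these events was read as a 153-nt form that begins further upstream and ends at the same base. Its *Δ*I was -0.265 against the 46-nt exon.

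The 3 events that measure the 46-nt exon had *Δ*I above 0. Its value was 0.423 as a cassette between the 100-nt and the 42-nt exon, 0.34 against the 42-nt exon between the flanking exons, and 0.223 against the 42-nt exon in transcripts that already held the 100-nt exon. The 42-nt exon as a cassette between the 46-nt and the 51-nt exon had a *Δ*I of -0.265, which is more inclusion in the knockout. The 9 events overlap and share splice junctions, so they are several views of 1 region and not 9 separate changes. Which exons a *Dlg3* pair compares was read from numbers inside the event names that recur between events, a reading not stated in the sources used here. The pair with -0.55 and the *Cask* pair have no such numbers and were assigned from the annotated exons inside their spans. The 153-nt form of the 100-nt exon also fits this *Dlg3* pair. It fits the cassette with -0.576 as well, which was taken as the 100-nt exon. The 100-nt and 153-nt labels of the pairs with -0.608, -0.424 and -0.265 rest on that choice and would be exchanged with it. The value of a pair was taken to stand for the exon nearer the 5′ end. In other genes of the table, the cassette value of the first exon of a pair had the sign of the pair's value in 18 of 18 cases, and that of the second exon in 0 of 7.

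The reading frame of *Dlg3* depends on these exons. It was followed in the annotated coding sequence for each combination of the 100-nt, 46-nt and 42-nt exons. The frame with the 153-nt form was not followed. Before the region the coding sequence runs for 1827 nt, or 609 codons. The frame stayed open to the annotated end with the 100-nt exon alone, the 46-nt exon alone, and either of them followed by the 42-nt exon. It was lost when neither or both of the 100-nt and 46-nt exons were present. With the 100-nt exon joined to the 46-nt exon, with or without the 42-nt exon, a stop codon followed 117 nt into the region. With none of the 3 exons it followed after 36 nt, and with the 42-nt exon alone after 6 nt. Annotated protein-coding transcripts hold the 46-nt exon alone (2 transcripts), 46 with 42 nt (1) and 100 with 42 nt (1). *Δ*I compares exons pair by pair and does not give the share of *Dlg3* mRNA that held both the 100-nt and the 46-nt exon.

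In *Cask* the 36-nt exon was included less in *Nova2-/-* cortex. As a cassette between the 69-nt exon upstream and a 197-nt exon downstream, it had a *Δ*I of 0.594. Where the 69-nt and the 36-nt exon replaced each other, *Δ*I was -0.258, so the 69-nt exon gained relative to the 36-nt exon in the knockout. Both lengths are multiples of 3, and every combination of the 2 exons kept the frame open after the 1719 coding nt that precede the region. The third event is a pair of alternative 5′ splice sites of an upstream exon (event span chrX:13291792-13363175), with a *Δ*I of 0.225. The annotation ends that exon at 113 nt in 8 transcripts and 18 nt further downstream, at 131 nt, in 1 transcript, and which of the sites *Δ*I counts as inclusion was not given in the sources used here. Against the *Dlg3* exons, whose lengths of 100 and 46 nt are not multiples of 3, the *Cask* exons are like the 77.7% of placed cassette exons in the table with a length divisible by 3.

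The same 12 events, which lie in 3 separate regions, were small in *Nova1-/-* mice. Their size of *Δ*I was at most 0.0826 in *Nova1-/-* cortex (median 0.03) and at most 0.0884 in *Nova1-/-* midbrain and hindbrain (median 0.0186), against a median of 0.381 in *Nova2-/-* cortex. None of the 12 reached a size of 0.1 in either *Nova1-/-* comparison. Over all events of the table the share that did was 11.1% in cortex and 15.9% in midbrain and hindbrain. The median size over all events was also small, at 0.0341 in *Nova1-/-* cortex and 0.0378 in *Nova1-/-* midbrain and hindbrain. The table holds only events with a size of 0.1 or more in *Nova2-/-* cortex, so the larger *Nova2-/-* values are a property of the list. The cassette value taken as that of the 100-nt exon was -0.00252 and -0.00455 in the 2 *Nova1-/-* comparisons. That of the 36-nt *Cask* exon was -0.0405 and -0.0031. The 42-nt exon of *Dlg3* had the largest *Nova1-/-* values, with -0.0743 and -0.0884 as a cassette and 0.0826 and 0.0819 for the 46-nt against the 42-nt exon after the 100-nt exon. The signs of these values are those of the *Nova2-/-* values. The cassette value of the 46-nt exon between the 100-nt and the 42-nt exon, at -0.0787 in midbrain and hindbrain, had the opposite sign to its *Nova2-/-* value.

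**Figure D2:**
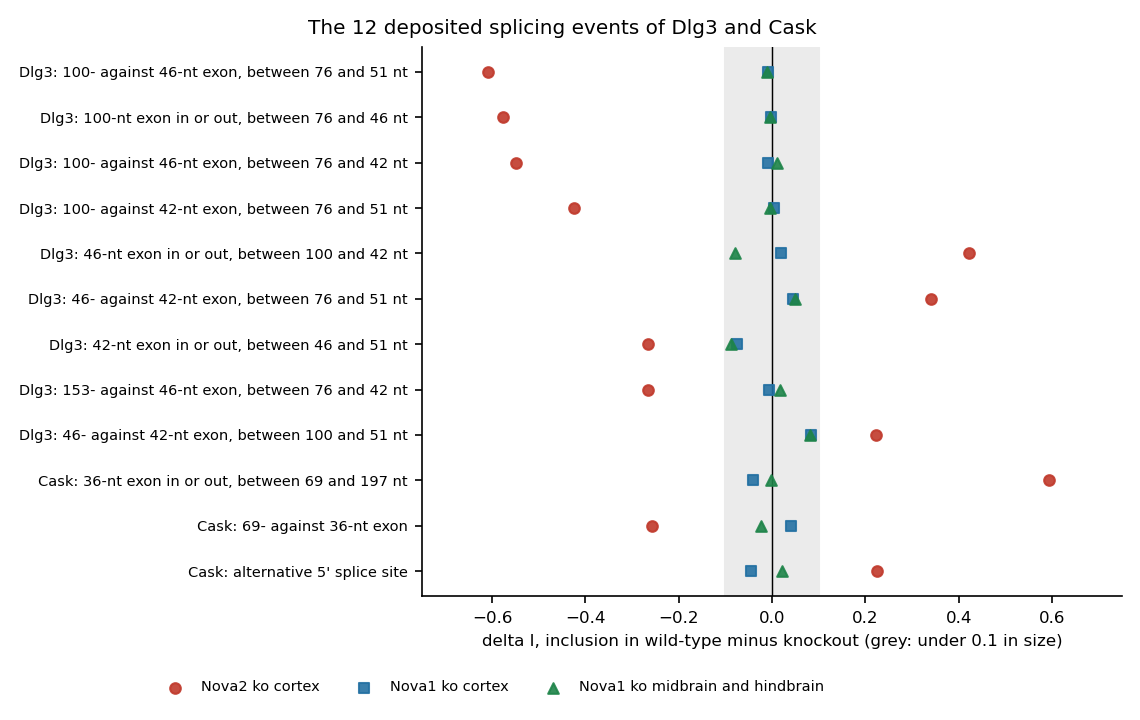
*Δ*I (wild-type minus knockout inclusion) of each of the 12 deposited events of *Dlg3* and *Cask*, in *Nova2-/-* cortex (red circles), *Nova1-/-* cortex (blue squares) and *Nova1-/-* midbrain and hindbrain (green triangles). Each point is 1 deposited value without error, the grey band marks sizes under 0.1, and all *Nova1-/-* points lie inside it while the *Nova2-/-* points lie between -0.608 and 0.594 and outside it.

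Among the 1991 events in 539 genes, the members' events were large but not the largest. By its largest event *Dlg3* ranked 28 of the 539 genes and *Cask* 36. The median size over all events was 0.223. *Dlg3* had 9 events where the median gene had 2, and 54 of the 539 genes had as many. Joining overlapping spans left 3 regions for the members, 1 in *Dlg3* and 2 in *Cask*.

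The count libraries held 16518149 to 31361972 counts per mouse. Wild-type mouse 2 had the fewest counts, yet a count in 21791 genes, against 18397 to 19396 in the other 11 libraries. *Nova1* fell to between 0.03397 and 0.2112 CPM (counts scaled to a common library size) in *Nova1-/-* cortex from 41.43 to 75.86 CPM in wild-type, and *Nova2* fell from 34.7 ± 5.34 to 18.8 ± 2.42 CPM (SD, n = 3) in *Nova2-/-* cortex (log2 fold change -0.87, Benjamini-Hochberg adjusted p = 0.0373 from the quasi-likelihood test of edgeR). The sexes were not balanced. Wild-type mice 2 and 3 and *Nova1-/-* mouse 2 had 4.22 to 128.3 CPM of *Xist*, the RNA of the inactive X, and 126.3 to 154.8 CPM of the Y-linked *Ddx3y*. The other 9 libraries had 1576 to 2280 CPM of *Xist* and at most 8.2 CPM of *Ddx3y*. Since *Cask* and *Dlg3* are X-linked, values from a fit with a term for sex are given beside theirs. In bulk tissue, fewer cells of a type and less RNA per cell cannot be told apart.

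*Dlg3* mRNA fell in *Nova2-/-* cortex. Its level was 118.6, 119.2 and 114.9 CPM in the wild-type mice 1 to 3 and 77.07, 71.23 and 77.52 CPM in the *Nova2-/-* mice. The highest knockout value was far under the lowest wild-type value, and the spread within each group was a few CPM (SD 2.34 and 3.51). The log2 fold change was -0.63 (SE 0.07, 95% confidence interval -0.78 to -0.48), a change of -35.4%, with a Benjamini-Hochberg adjusted p of 0.00977 from the quasi-likelihood test of edgeR. *Dlg3* was the only one of the 10 genes to pass the threshold of 0.05, and it ranked 15 by p among 15691 genes, of which 1.06% passed in either direction and 0.363% as lower. Leaving out 1 mouse at a time kept the log2 fold change between -0.65 and -0.61, but the adjusted p of the same test rose to 0.0595 without wild-type mouse 2, 0.0932 without *Nova2-/-* mouse 1 and 0.0735 without *Nova2-/-* mouse 2. With a term for sex over all 12 libraries the log2 fold change was -0.66 (Benjamini-Hochberg adjusted p = 0.00164 from the quasi-likelihood test of edgeR). The single wild-type mouse of this set with high *Xist* had 118.6 CPM of *Dlg3*. All *Nova2-/-* mice had high *Xist*, and 1 wild-type mouse does not separate sex from genotype.

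In *Nova1-/-* cortex *Dlg3* was at its wild-type level. It had 116.3, 112 and 129.6 CPM in wild-type mice 4 to 6 and 121.3, 114.5 and 112.2 CPM in *Nova1-/-* mice. These groups overlapped, and the log2 fold change was -0.04 (SE 0.06, 95% confidence interval -0.18 to 0.10). The *Nova2-/-* change less the *Nova1-/-* change was -0.60 (SE 0.09, 95% confidence interval -0.80 to -0.40), with a Benjamini-Hochberg adjusted p of 0.00638 from the quasi-likelihood test of edgeR, and stayed past the threshold in each of the 12 fits that left out 1 mouse. It was the only such difference among the 10 genes, where 1.83% of 16210 genes passed. The wild-type mice of the 2 sets differed in *Dlg3* by 0.03 on the log2 scale (SE 0.07).

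**Figure D3:**
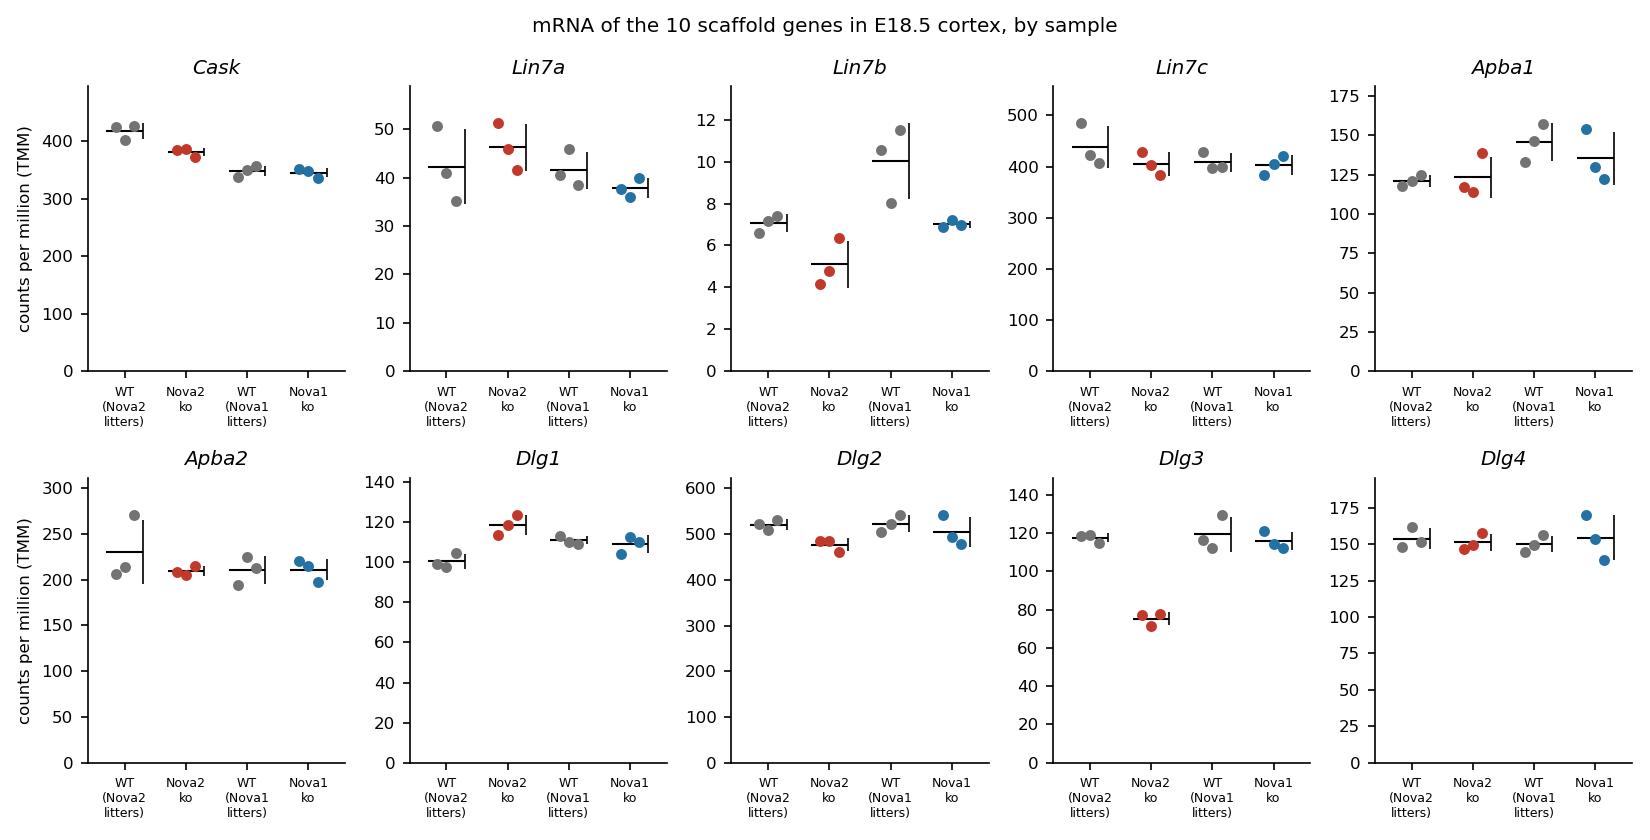
CPM of each of the 10 genes (vertical axes, each from 0) in the 4 groups of 3 cortices. Points are mice, horizontal bars group means and vertical bars SDs. For *Dlg3* the *Nova2-/-* mice lie at 71.23 to 77.52 CPM, under the other 9 mice, which lie at 112 to 129.6 CPM.

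The other Dlg genes changed less. *Dlg1*, a widely expressed family member also found in epithelia, had 99.27, 97.59 and 104.6 CPM in wild-type and 113.5, 118.4 and 123.7 CPM in *Nova2-/-* cortex, so its groups did not overlap and the knockout lay above. Its log2 fold change was 0.25 (SE 0.07, 95% confidence interval 0.10 to 0.41), and it missed the threshold with a Benjamini-Hochberg adjusted p of 0.113 from the quasi-likelihood test of edgeR. It passed in the fit of all 12 cortices (0.24, adjusted p = 0.0247 in the same test), where 1334 of 16210 genes passed. It also passed without wild-type mouse 3 (adjusted p = 0.0303 in the same test), where 1433 of 15874 genes did. In the same test it did not pass with a term for sex (adjusted p = 0.0711) or with a replicate block (adjusted p = 0.0787). DESeq2 did not call it either. *Dlg2*, the most abundant Dlg mRNA here, had 509 to 531.9 CPM in wild-type and 460 to 485.8 CPM in *Nova2-/-* cortex, and again the groups did not overlap. Its log2 fold change of -0.11 (SE 0.06, 95% confidence interval -0.26 to 0.03) did not pass. *Dlg4*, which encodes a main scaffold of mature excitatory synapses, had 153.9 ± 7.02 and 151.3 ± 5.69 CPM (SD, n = 3) and a log2 fold change of -0.01 (SE 0.07, 95% confidence interval -0.16 to 0.14).

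In the Cask, Lin7 and Apba group no gene passed the test in *Nova2-/-* cortex. *Cask* had 425.2, 402.2 and 426.6 CPM in wild-type and 384.2, 387.4 and 372.8 CPM in knockout mice. Every knockout value was lower, by a log2 fold change of -0.12 (SE 0.06, 95% confidence interval -0.26 to 0.02). The wild-type mice 4 to 6 had less *Cask* than either, at 338.8 to 357 CPM, and the wild-type sets differed by -0.25. With a term for sex the knockout difference was -0.14.

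*Lin7b*, the least abundant of the 3 Lin7 genes, which encode small PDZ adaptors, had 6.58, 7.17 and 7.40 CPM in wild-type and 4.18, 4.79 and 6.35 CPM in *Nova2-/-* cortex. The knockout values were all lower but widely spread, and the log2 fold change was -0.45 (SE 0.19, 95% confidence interval -0.88 to -0.03, unadjusted p = 0.0396 and Benjamini-Hochberg adjusted p = 0.238 from the quasi-likelihood test of edgeR). In *Nova1-/-* cortex *Lin7b* was also lower, at 6.88 to 7.20 CPM against 8.03 to 11.5 CPM in wild-type, without overlap, as in 6.80% of all genes, with a log2 fold change of -0.52 (SE 0.14, adjusted p = 0.435 in the same test). Its counts were low, from 94 to 361 per library, and the wild-type sets themselves differed by 0.52. *Lin7a* had overlapping groups, with a log2 fold change of 0.14 (SE 0.14) in *Nova2-/-* cortex, and so had *Lin7c*, with -0.10 (SE 0.08). Leaving out 1 mouse at a time moved these values from 0.0258 to 0.289 for *Lin7a* and from -0.147 to -0.0276 for *Lin7c*.

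The Apba genes encode adaptors that bind Munc18 and the amyloid precursor protein. *Apba1* had 117.5 to 124.9 CPM in wild-type and 114.1 to 138.5 CPM in *Nova2-/-* cortex. *Apba2* had 206.4 to 271.1 and 204.7 to 215 CPM. Both overlapped, with log2 fold changes of 0.04 (SE 0.09, 95% confidence interval -0.16 to 0.24) and -0.13 (SE 0.11, 95% confidence interval -0.37 to 0.11). The highest *Apba2* value came from wild-type mouse 3, and without it the log2 fold change was 0.0116.

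In *Nova2-/-* cortex the groups of 3 did not overlap in 5 of the 10 genes, lower in *Cask*, *Lin7b*, *Dlg2* and *Dlg3* and higher in *Dlg1*. Over all tested genes this held for 14.0% as lower and 12.4% as higher. The median log2 fold change of the 10 genes was -0.108, beside 0.00915 over all genes, and the median size was 0.124, beside 0.159. At an unadjusted p under 0.05 there were 3 of the 10 genes, where 19.2% of all genes passed that limit.

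In *Nova1-/-* cortex none of the 10 genes passed the same edgeR test, where 0.0126% of 15901 genes did, and 1 of the 10 genes (*Lin7b*) was under an unadjusted p of 0.05, where 7.44% of all genes were; the DESeq2 count was also 0. The log2 fold changes of the 9 genes other than *Lin7b* lay between -0.13 and 0.04. The median was -0.0316. For *Dlg1*, whose *Nova2-/-* value stood out among those that missed the threshold, the *Nova1-/-* value was -0.02 (SE 0.05) and the difference between knockouts 0.26 (SE 0.08, Benjamini-Hochberg adjusted p = 0.112 from the quasi-likelihood test of edgeR).

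**Figure D4:**
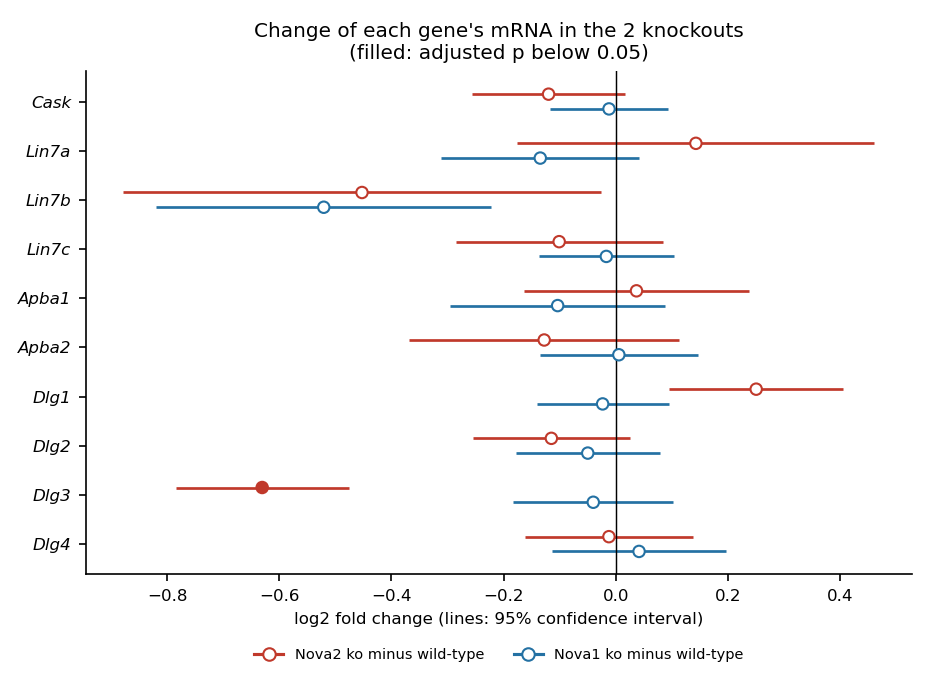
Log2 fold change of each of the 10 genes in *Nova2-/-* (red) and *Nova1-/-* (blue) cortex against the wild-type mice of the same set, with 95% confidence intervals. Filled circles passed an adjusted p of 0.05, which holds for *Dlg3* in *Nova2-/-* cortex alone, at -0.63.

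The wild-type mice of the 2 sets gave a measure of how far these genes differ without a *Nova* null allele. The sets also differ in sex, since of the wild-type mice only 2 and 3 had low *Xist*. None of the 10 passed the test there in edgeR, where 3.03% of 15918 genes did, though 4 were under an unadjusted p of 0.05 (21.1% of all genes) and DESeq2 called 2. *Cask* was lower in wild-type mice 4 to 6 by -0.25 (SE 0.06, 95% confidence interval -0.39 to -0.11) on the log2 scale, and passed in the fit with a term for sex (-0.27, Benjamini-Hochberg adjusted p = 0.0405 from the quasi-likelihood test of edgeR), while *Apba1* (0.28, SE 0.08), *Lin7b* (0.52, SE 0.16) and *Dlg1* (0.15, SE 0.07) were higher. By point estimate the *Nova2-/-* change of *Dlg3* was larger in size than all 4, but the 95% confidence interval of *Lin7b* was 0.16 to 0.89. The sizes were not tested against each other.

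Per kilobase of annotated exon, *Lin7c* was the most abundant of the 10 mRNAs in wild-type mice 1 to 3, at 97.0 ± 9.0 CPM per kb (SD, n = 3), followed by *Apba2* with 61.5 ± 9.45. *Dlg2* (47.4 ± 1.05) and *Cask* (45.6 ± 1.5) came next and lay close together, with *Dlg2* a little above *Cask* in each of these mice. *Dlg4* had 33.1 ± 1.51, *Dlg3* 20.1 ± 0.401 and *Apba1* 17.6 ± 0.538 CPM per kb. At the low end were *Dlg1* (11.2 ± 0.406), *Lin7a* (7.11 ± 1.31) and *Lin7b* (4.82 ± 0.291). In *Nova2-/-* cortex *Dlg3* stood at 12.9 ± 0.601 CPM per kb, under *Apba1* (17.9 ± 1.93) and next to *Dlg1* (13.2 ± 0.568), from which it did not differ beyond the spread.

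Other genes of these pathways were followed in 3 lists. No gene of them passed the edgeR test in *Nova2-/-* cortex, in *Nova1-/-* cortex or for the difference between them. Of the 14 other membrane-associated guanylate kinases (Dlg5, the Mpp, Magi and Tjp families), 4 were under an unadjusted p of 0.05 in *Nova2-/-* cortex (19.2% of all genes), all higher, and the median log2 fold change was 0.112. Of 22 tested partners of Cask, Lin7 and Apba, such as neurexins, syndecans and liprins, 1 was (median 0.00953), and of 26 tested partners of Dlg, such as the Dlgap, Shank and Homer families, neuroligins and NMDA receptor subunits, 5 were (median -0.0322). All genes had a median of 0.00915. In the same order of lists, 1, 0 and 1 genes were under that limit in *Nova1-/-* cortex (7.44% of all genes) and 2, 3 and 3 for the difference (18.2% of all genes). The lists were not run in DESeq2. Splicing events were found for 1 of the 14 kinases (*Magi1*), where 3.22% of all genes tested had an event. Partners of Dlg with an event included *Dlgap4*, *Kif1b*, *Nlgn1*, *Grin1*, *Cnksr2* and *Adam22*, and were named after their values were seen. Among these 6 the largest event was in *Adam22*, a transmembrane protein that binds Dlg4, with a *Δ*I of 0.721 between mutually exclusive exons. In *Nlgn1*, a neuroligin, it was 0.378 for a cassette exon, and in *Grin1*, the obligatory NMDA receptor subunit, it was -0.32.

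The tissue matched its label. Neuron markers were abundant in all cortices and midbrain and hindbrain markers summed to at most 0.976 CPM. The 9 neuron markers found summed to 5060 to 5600 CPM in wild-type mice 1 to 3 and to 4590 to 5110 CPM in *Nova2-/-* mice, with a median log2 fold change of -0.134 and none past the test. Meningeal markers moved most. Their 10 genes summed to 216 to 555 CPM in these wild-type and to 832 to 1050 CPM in *Nova2-/-* mice, and *Col1a1* and *Dcn* passed the test. In the wild-type mice 4 to 6 the same sum was 764 to 983 CPM. Of 6 endothelial markers *Kdr* passed as higher (0.78), and of 6 interneuron markers *Sst* as lower (-0.83). The median log2 fold change of the endothelial markers was 0.431, with *Esam* at -0.11. The interneuron markers other than *Sst* lay between -0.0269 and 0.0846, and the interneuron median was 0.0247. The part of these cell types in the values of the 10 genes was not tested. Among the 505 tested genes with a splicing event, 1.78% passed as lower and 1.98% as higher in *Nova2-/-* cortex. *Dlg3* is 1 of the 9 lower genes.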

How the data were processed

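The study extracted total RNA with Trizol, removed ribosomal RNA with Ribo-Zero and sequenced TruSeq libraries as paired-end reads. OLego aligned the reads to mm10, and the authors deposited expected counts per gene symbol for 12 cortices, without normalization; the counting program and annotation were not given in the sources used here. The authors also deposited, for events of *Nova2-/-* cortex, *Δ*I, a score without replicates, and its FDR (adjusted p-values), with positions converted to mm9. The sign of *Δ*I was taken from the direction the paper states for an exon of *Neo1*. The deposited log2 fold changes and FDR values of edgeR were not used, and the FDR of splicing only to check that every listed event was under 0.1 (largest 0.0998). The submitters' processing notes name edgeR and mm9.

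Groups came from genotype, region and number in the labels. Wild-type mice 1 to 3 were set beside *Nova2-/-* and 4 to 6 beside *Nova1-/-* cortices, which the labels number in this order and the paper calls littermates. Expected counts were rounded. No count column was left unused, and no symbol was blank. edgeR 4.0.16 in R 4.3.3 was run over all genes with the default filter on low counts, TMM normalization, the quasi-likelihood test and Benjamini-Hochberg adjustment at 0.05, with the 6 samples of a comparison or all 12 for the difference between knockouts. On simulated counts for *Nova2-/-* cortex (15691 genes), 140 of 200 genes changed by 1 on the log2 scale were found, with 13 false calls, and 7 of 200 changed by 0.5, with 2 false calls. CPM used TMM-scaled totals, and CPM per kb the merged exons of GENCODE vM1. Errors of means are SDs. Sequences, exons and reading frames came from the mm9 genome and the same annotation (Python 3.11.15, pandas 2.3.3, pysam 0.24.0, matplotlib 3.10.9). Alternatives were DESeq2 1.42.0, other filters and normalization, all 12 cortices in 1 fit, a replicate block and each mouse left out. A fit with a term for sex (*Xist* above or below 1000 CPM) was added after seeing the data. Rules for names took all 10 genes in every comparison, *Nova1*, *Nova2*, passing genes of the lists and all events of the 10 genes. The members and lists were chosen with earlier results of these data known. Splicing results of some listed partner genes are not reported here.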

Additional observations from a re-analysis of the deposited data

Results flagged for a closer look

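*Dlg3* changed differently in the 2 knockouts. The *Nova2-/-* change less the *Nova1-/-* change was -0.60 on the log2 scale (SE 0.09), with a Benjamini-Hochberg adjusted p of 0.00638 from the quasi-likelihood test of edgeR, and all 3 *Nova2-/-* mice lay under the other 9. A cause was not tested.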

How the results depend on the processing

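*Dlg3* kept its direction in *Nova2-/-* cortex under every alternative run and its call in all 7 that kept every mouse and set no limit on size, with log2 fold changes from -0.66 to -0.62. Leaving out 1 mouse left 0 to 2 of the 10 genes called in *Nova2-/-* cortex, 1 to 2 for the difference between knockouts and 0 to 4 between the wild-type sets (4 without wild-type mouse 3), while the count over all genes in *Nova2-/-* cortex ran from 7 to 1433. The 12-sample fit called 2 genes in *Nova2-/-* cortex (*Dlg1* besides *Dlg3*), where 1334 of 16210 genes passed. DESeq2 called 2 for the difference between knockouts and 2 between the wild-type sets, where the fit with a term for sex called 1 (*Cask*, -0.27). A limit of 1 on the size of the log2 fold change left 0 in *Nova2-/-* cortex and 0 for the difference. The cause of these shifts was not tested. Joined spans left 3 splicing events, and windows of 100 bases held 33 motif copies.

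Small values changed sign. Leaving out 1 mouse at a time, those in *Nova2-/-* cortex were *Apba1* (-0.0577 to 0.0768), *Apba2* (-0.205 to 0.0116) and *Dlg4* (-0.045 to 0.0256); in *Nova1-/-* cortex *Cask* (-0.0288 to 0.01), *Lin7c* (-0.0466 to 0.0237), *Apba2* (-0.0445 to 0.0576), *Dlg1* (-0.047 to 0.0099), *Dlg3* (-0.0799 to 0.0231) and *Dlg4* (-0.0329 to 0.112); for the difference *Lin7b* (-0.114 to 0.188), *Apba2* (-0.214 to 0.00287) and *Dlg4* (-0.133 to 0.0199); and between the wild-type sets *Lin7a* (-0.132 to 0.136), *Apba2* (-0.199 to 0.0177), *Dlg2* (-0.0115 to 0.0429), *Dlg3* (-0.0319 to 0.0645) and *Dlg4* (-0.0534 to 0.0114). With a term for sex, *Lin7a* became -0.0324 in *Nova2-/-* cortex, *Lin7c* 0.0198 and *Apba2* -0.0406 in *Nova1-/-* cortex, and *Dlg2* -0.0123 between the wild-type sets. Wild-type and *Nova2-/-* mice share the numbers 1 to 3. Deviations of same-numbered mice correlated by 0.119, 0.0312 and 0.2, and those of differently numbered mice by -0.216 to 0.139. These few values do not settle whether the numbers mark pairs. The labels do not state pairs, and the main tests did not use the numbers as pairs. With a replicate block 1 of the 10 genes, *Dlg3*, was called in *Nova2-/-* cortex (-0.63, adjusted p = 0.0209 in edgeR's quasi-likelihood test), and 220 of all genes in place of 166. With 3 mice a group, changes of 0.5 on the log2 scale were mostly missed in simulated counts of this comparison. *Δ*I has no depth or error, so small values cannot be told from 0.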
